A study of Petromyzon marinus with 2 samples.

Results

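SOHLH2 cells were defined here as GABA-synthesising neurons of the adult sea lamprey (Petromyzon marinus) retina that carried transcripts of SOHLH2. They were chosen by their counts of 11 genes in UMIs (unique molecular identifiers, so that copies of 1 captured transcript count once), and those values are described here without a test. A droplet barcode was a member with at least 2000 UMIs in all, at least 1 of GAD1, 0 of the glycine transporter genes SLC6A9 and SLC6A5, at most 1 of CHAT, at least 2 of SOHLH2, and at most 1 each of TMEM121, PRDM13, PDE11A, NR4A2, RXFP1 and RBPMS. Of the 28891 barcodes, 193 were members: 31 of 12933 in replicate 1 and 162 of 15958 in replicate 2.

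The study profiled cells of papain-dissociated retinas from adult animals, with no treatment or mutation, as 2 droplet libraries labelled as replicates. The study calls the libraries biological replicates and used more than a single animal. Which animals went into which library is not given, so the p-values below apply to these libraries. With 2 libraries per set, the tests pooled the spread across genes. A small p-value or standard error (SE) therefore does not show that the libraries lay close together for that gene. Cells are not replicates, so UMIs were summed per library and set of cells before any test. Levels are given as CPM, the UMIs of a gene scaled to a common total for each library and set of cells, with replicate 1 before replicate 2.

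SOHLH2 is named here through its RefSeq gene ID in another assembly, since the files give that ID and no symbol, and PRDM13 likewise. SOHLH2 encodes a basic helix-loop-helix transcription factor known from mammalian germ cells. GAD1 encodes glutamate decarboxylase, the enzyme that makes GABA, the transmitter of most inhibitory neurons of the vertebrate retina. In jawed vertebrates most of these are amacrine cells, which shape signals on their way to the ganglion cells, and a smaller number of GABA-releasing cells lie among the displaced neurons of the ganglion cell layer.

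SOHLH2 UMIs were concentrated in few cells. The members held 4585 of the 7991 SOHLH2 UMIs of both matrices. A member carried from 2 to 161 SOHLH2 UMIs in replicate 1, with a median of 3, and from 2 to 173 in replicate 2, with a median of 9. At least 10 were found in 11 members of replicate 1 and 80 of replicate 2, and 2 to 9 in the other 20 and 82. As a reference for free RNA, 0 of 224 Müller glia-like cells (HES1 at least 1, GLUL at least 8, GAD1 0) had 2 or more SOHLH2 UMIs, which allows a share of up to 1.63% (exact 95% limit, counting error only). A single SOHLH2 UMI or more was found in 3.13% of them. Their median depth was 18047 and 13314 UMIs, against 11085 and 8220 in SOHLH2 cells. The glia-like cells were chosen with 0 GAD1 UMIs, which leaves out those that held GAD1 RNA from neurons. Shares of free RNA in this reference may be low by that choice. The limit of 1.63% lies above the share of members in replicate 1 and just above the 1.62% over both libraries, but below the 2.21% of replicate 2. With so few reference cells it cannot decide whether members with 2 UMIs, 10 and 43 cells, were above free RNA. Other neurons held a few: 2 or more SOHLH2 UMIs were found in 11 of 1856 starburst-like cells (0.593%) and 20 of 3074 cells with glycine transporter UMIs (0.651%), and 10 or more in 2 and 7 of them. These shares are near the 0.682% of members in replicate 1 given below, but members also had to meet the other limits. By 2 or more SOHLH2 UMIs alone, the share was 1.54 and 3.61% of GAD1 cells without glycine transporter UMIs. It was 0.115 and 1.02% of starburst-like cells and 0.511 and 0.763% of cells with glycine transporter UMIs.

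**Figure D1:**
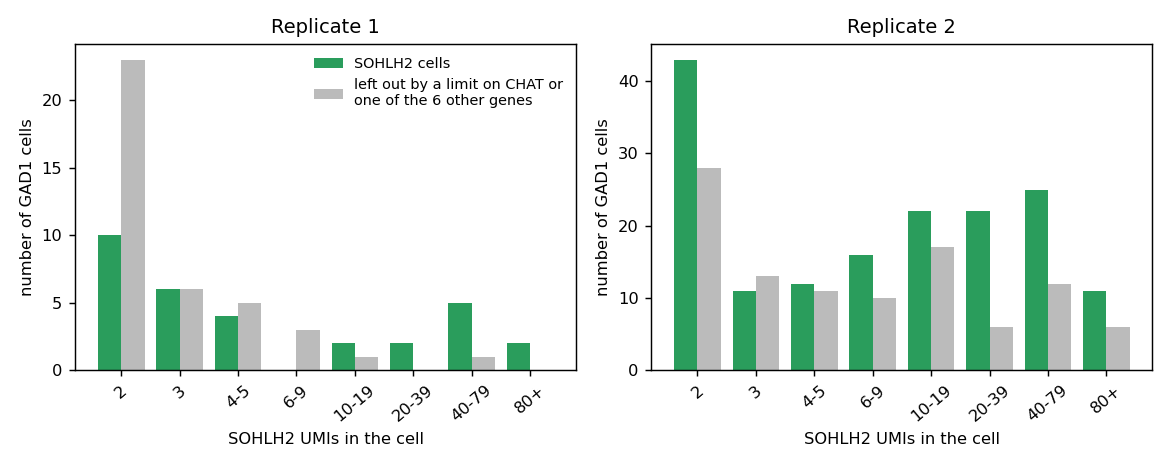
SOHLH2 UMIs per cell among GAD1-positive cells without glycine transporter UMIs, in each replicate; the horizontal axis is the class of SOHLH2 UMIs and the vertical axis the number of cells, with the members shown apart from cells that failed another limit. Of the 19 cells with 80 or more SOHLH2 UMIs, 13 were members.

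SOHLH2 cells made up a different share of each library. They were 0.682% of the 4543 GAD1 cells without glycine transporter UMIs in replicate 1 (exact 95% interval 0.464 to 0.967%) and 2.21% of the 7342 in replicate 2 (1.88 to 2.57%). These intervals cover counting error only and do not measure the spread between libraries. Replicate 2 over replicate 1 gave a ratio of 3.23. The same ratio lay between 0.501 and 0.957 for the sets gated in the same way on the other 6 genes, lowest for RBPMS cells and highest for RXFP1 cells. The members of 10 or more SOHLH2 UMIs differed in the same direction (0.242 and 1.09%), as did those of 2 to 9 (0.440 and 1.12%). With 1 library per replicate, sampling of the retina and handling of the library cannot be told apart.

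The other limits removed about as many SOHLH2-carrying cells as they kept. Of 397 barcodes with at least 2 SOHLH2 UMIs and at least 2000 UMIs, 193 were members. More than 1 UMI of one of the 6 other genes excluded 165, most often through TMEM121 (84 barcodes), RBPMS (39) or PRDM13 (37). UMIs of a glycine transporter gene excluded 59, CHAT 24 and a lack of GAD1 UMIs 13, and a barcode could fail several limits. A further 10 barcodes with 2 or more SOHLH2 UMIs were below 2000 UMIs. Both libraries held 83 barcode sequences in common, and 0 members carried one. No doublet caller was run.

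The gate genes are given as a description only. SOHLH2 was at 1957 and 2278 CPM in SOHLH2 cells, and at 0 by construction in the other GAD1 cells, which are the 4295 and 6813 cells of at least 2000 UMIs with GAD1 and without SOHLH2, SLC6A9 and SLC6A5. GAD1 stood at 2339 and 1582 CPM in SOHLH2 cells and at 2181 and 1761 CPM in the other GAD1 cells, and both sets were required to have at least 1 UMI of it. The summed UMIs behind the levels were 361195 and 1702129 in SOHLH2 cells.

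ISLR2, a leucine-rich repeat surface protein gene paired with SOHLH2 as a marker of these cells, was not called. It was at 47.1 and 41.1 CPM in SOHLH2 cells, against 39.4 and 29.0 CPM in the other GAD1 cells, a log2 difference of 0.45 ± 0.22 (SE; edgeR quasi-likelihood test, Benjamini-Hochberg adjusted p = 0.216). Against other GAD1 cells held to the same limits on the gate genes the difference was 0.05. Its UMIs were found in 38.7 and 22.2% of SOHLH2 cells, against 17.7 and 12.1% of the other GAD1 cells. With each cell thinned to 2000 UMIs the shares became 22.6 and 4.32%, against 5.47 and 4.51%, so the order held in replicate 1 alone. The share was 0 and 0.571% in Müller glia-like cells. RBPMS cells had more, at 104 and 54.9 CPM. The cells are called here by SOHLH2 alone.

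Against the other GAD1 cells, SOHLH2 cells were higher for the alpha-actinin gene ACTN2, a nuclear receptor (ESRRG), receptors (CNR1, GPR22, ERBB4.4) and a laminin chain (LAMA2), with log2 differences of 1.87 to 2.40. They were lower for the cell adhesion gene DSCAM, the peptide-binding protein gene CRHBP and the transport gene MYRIP. Of 15746 genes tested, 291 (1.85%) were called higher and 583 (3.70%) lower in SOHLH2 cells, at an adjusted p under 0.05 and at least 2-fold (5.55% either way). Of these, 58 and 112 carry a gene name. At an unadjusted p under 0.05, 1309 were higher and 1726 lower, and the median log2 difference of all genes was −0.05. The sums compared come from the same libraries, so library was in the model, and without it (no replicate block) 114 were higher and 131 lower. The other GAD1 cells include cells rich in the 6 genes that members were limited in, so the choice of members may lower genes that accompany those 6. With the other GAD1 cells held to the same limits, 254 of 14115 genes were higher and 720 lower, so the number of lower genes did not fall. The part of the choice in the lower genes as a whole was not tested.

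ACTN2, the alpha-actinin that crosslinks actin in muscle Z-discs and in dendritic spines of mammals, was at 94.1 and 69.9 CPM in SOHLH2 cells, against 23.4 and 11.5 CPM in the other GAD1 cells. Its log2 difference was 2.40 ± 0.21 (SE; edgeR adjusted p = 9.1e-29). The lower SOHLH2 library lay above the higher library of the other GAD1 cells, which the choice of genes by fold and direction made likely.

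ESRRG encodes an orphan nuclear receptor that drives oxidative metabolism genes in mammals. SOHLH2 cells held 1113 and 1321 CPM, against 252 and 303 CPM in the other GAD1 cells, a log2 difference of 2.15 ± 0.13 (SE; edgeR adjusted p = 2.9e-57). The SOHLH2 libraries lay well above those of the other GAD1 cells, for a gene that was likewise named for its fold. CASZ1, a zinc finger transcription factor gene, was at 94.1 and 33.5 CPM, against 18.3 and 16.5 CPM. Its log2 difference was 1.57 ± 0.23 (edgeR adjusted p = 9.8e-10), but it lost its call with cells thinned to 2000 UMIs (adjusted p = 0.256) and without library in the model (adjusted p = 0.125).

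CNR1, the cannabinoid receptor that dampens transmitter release in mammalian neurons, was at 2256 and 1380.0 CPM in SOHLH2 cells, against 595 and 399 CPM in the other GAD1 cells, with a log2 difference of 1.87 ± 0.13 (SE; edgeR adjusted p = 4.9e-46). GPR22, an orphan G protein-coupled receptor gene, was at 404 and 454 CPM, against 111 and 91.2 CPM (log2 difference 2.13 ± 0.14, edgeR adjusted p = 1.1e-49). ERBB4.4, one of several lamprey gene models named after the neuregulin receptor, was at 88.6 and 79.9 CPM, against 19.1 and 24.3 CPM (log2 difference 1.89 ± 0.20, edgeR adjusted p = 1.7e-19). Müller glia-like cells held more ERBB4.4, at 184 and 216 CPM. How reads were divided between the models of this name was not tested.

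LAMA2, a chain of the laminins of basement membranes, was at 88.6 and 64.6 CPM in SOHLH2 cells and at 18.0 and 19.5 CPM in the other GAD1 cells (log2 difference 1.94 ± 0.21, SE; edgeR adjusted p = 2.5e-18). Among the higher genes were also ABLIM1, an actin-binding LIM protein gene, with 1326 and 1094 CPM, against 432 and 418 CPM, and the kelch repeat gene KLHDC8B with 224 and 273 CPM, against 86.0 and 71.0 CPM. HHATL, a relative of the hedgehog acyltransferase gene, reached 33.2 and 36.4 CPM, against 9.01 and 11.7 CPM, and lost its call with thinned cells (edgeR adjusted p = 0.708). The libraries of SOHLH2 cells did not overlap those of the other GAD1 cells for any of these 4 genes. They were named for a large fold of the same direction in both libraries, so this follows largely from the choice.

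BBS7 is a gene whose value cannot be separated from the choice of cells. It encodes a subunit of the BBSome, which sorts membrane proteins in cilia, and was at 38.8 and 52.9 CPM in SOHLH2 cells, against 12.4 and 13.9 CPM (log2 difference 1.87 ± 0.24, SE; edgeR adjusted p = 1.7e-12). In the RefSeq annotation of the assembly UKy_Petmar_22M1.pri1.0, which is not the build of the files, BBS7 lies next to SOHLH2 and the gene models overlap. Whether counting used strand is not given in the sources used here, so reads of the overlapping genes cannot be told apart. BBS7 was at 75.3 and 78.0 CPM in members of 10 or more SOHLH2 UMIs and at 17.5 and 24.0 CPM in those of 2 to 9, where it was not called (log2 difference 0.69, edgeR adjusted p = 0.503).

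DCLK1, a doublecortin-like kinase gene on the far side of BBS7 that does not overlap SOHLH2, was at 1116 and 1050.4 CPM in SOHLH2 cells, against 468 and 347 CPM (log2 difference 1.45 ± 0.13, SE; edgeR adjusted p = 4.8e-27). It stood at similar levels in both parts of the members, at 1062 and 1055 CPM with 10 or more SOHLH2 UMIs and 1147 and 1045 CPM with 2 to 9. CCDC169, the neighbour on the other side of SOHLH2, had 2.77 and 7.05 CPM, against 3.14 and 3.50 CPM (edgeR adjusted p = 0.474). DCLK1 and CCDC169 were looked up as neighbours after the value of BBS7 was seen.

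**Figure D2:**
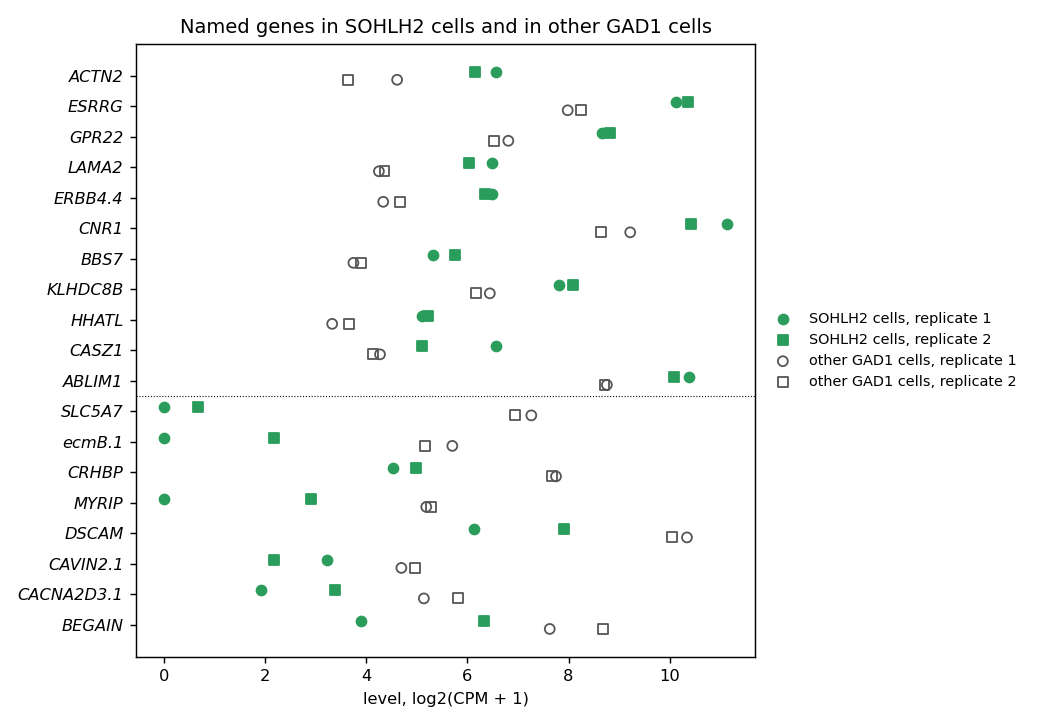
Levels of 11 named genes that were higher (above the dotted line) and 8 that were lower in SOHLH2 cells against the other GAD1 cells; each point is the level of 1 library as log2(CPM + 1). ESRRG had 1113 and 1321 CPM in SOHLH2 cells, against 252 and 303 CPM in the other GAD1 cells, and DSCAM 69.2 and 241 CPM, against 1298 and 1053 CPM.

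Among the lower genes, DSCAM, which encodes a cell adhesion molecule of neurite self-avoidance in mice and flies, fell to 69.2 and 241 CPM in SOHLH2 cells, against 1298 and 1053 CPM, a log2 difference of −2.76 ± 0.15 (SE; edgeR adjusted p = 3.1e-73). The SOHLH2 libraries differed from each other, the log2 difference was −4.13 in replicate 1 and −2.10 in replicate 2, and DESeq2 did not call it (adjusted p = 0.176). CRHBP, which encodes the binding protein of corticotropin-releasing hormone, was at 22.1 and 30.6 CPM, against 215 and 202 CPM (log2 difference −2.83 ± 0.20, edgeR adjusted p = 3.3e-43). MYRIP, which links Rab27 to myosin in mammals, was at 0 and 6.46 CPM in SOHLH2 cells, against 35.4 and 37.9 CPM (log2 difference −2.82 ± 0.36, edgeR adjusted p = 6.9e-13).

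BEGAIN, a gene on the amacrine marker list whose protein binds a postsynaptic scaffold in mammals, was at 13.8 and 79.3 CPM in SOHLH2 cells, against 197 and 411 CPM (log2 difference −2.56 ± 0.18, SE; edgeR adjusted p = 1.2e-43). The difference was −1.28 once the other GAD1 cells were held to the same limits. CACNA2D3.1, a calcium channel auxiliary subunit gene, had 2.77 and 9.40 CPM, against 34.2 and 55.4 CPM. BEGAIN and CACNA2D3.1 lost their calls without library in the model (edgeR adjusted p = 0.115 and 0.0542). SLC5A7, the choline transporter gene of cholinergic neurons, had 1 UMI in all SOHLH2 cells, against 153 and 123 CPM in the other GAD1 cells. Since the limit on CHAT applied to members alone, that difference may follow in part from the rule. With the same limits on both sets SLC5A7 was not called, though its log2 difference was still −3.15 (edgeR adjusted p = 0.0512). CAVIN2.1, a caveola coat gene, had 8.31 and 3.52 CPM, against 24.8 and 30.1 CPM. It likewise lost its call with the same limits (log2 difference −1.36, edgeR adjusted p = 0.0569). ecmB.1, whose role in animals is not given here, had 0 and 3.52 CPM in SOHLH2 cells, against 51.0 and 34.6 CPM.

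SOHLH2 cells were also compared with cells gated in the same way on TMEM121, PRDM13, PDE11A, NR4A2, RXFP1 and RBPMS (94 to 696 cells per library). The study lists genes named TMEM121, PRDM13, PDE11A and NR4A2 among the markers of its ganglion cell subgroups. Whether the sets gated here match those subgroups was not tested. These cells lie within or beside the other GAD1 cells and the SOHLH2 cells are the same, so the comparisons share cells and are not independent. Against the mean of the fitted log2 levels of the 6 sets, 385 of 12333 genes (3.12%) were higher and 152 (1.23%) lower (4.35% either way). The named genes numbered 82 and 30, and the median log2 difference was −0.01. A gene that is nearly absent from several sets draws that mean down and raises its fold.

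RBPMS cells differed from SOHLH2 cells in the fewest genes. Of the 12333 genes, 106 (0.859%) were higher and 123 (0.997%) lower in SOHLH2 cells against RBPMS cells. The next fewest were 329 higher (2.67%) and 268 lower (2.17%) against TMEM121 cells. Against NR4A2 cells 472 were higher (3.83%) and 389 lower (3.15%), and against PDE11A cells 518 (4.20%) and 532 (4.31%). Against RXFP1 cells 604 were higher (4.90%) and 473 lower (3.84%), and against PRDM13 cells 636 (5.16%) and 443 (3.59%). The sums behind the sets differ: over both libraries RBPMS cells held 3443663 UMIs, more than PDE11A cells (1592989) and fewer than NR4A2 (3597405), PRDM13 (4466662), RXFP1 (6075186) and TMEM121 cells (13965443). The part of these sums in the number of calls was not tested. Across genes, the log2 levels of SOHLH2 cells followed those of RBPMS cells with Pearson r = 0.947 in replicate 1 and 0.970 in replicate 2, against 0.892 to 0.939 and 0.918 to 0.961 for the other 5 sets. The SOHLH2 cells of the 2 libraries followed each other with r = 0.949. Genes are not independent replicates, and these values describe the profiles.

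**Figure D3:**
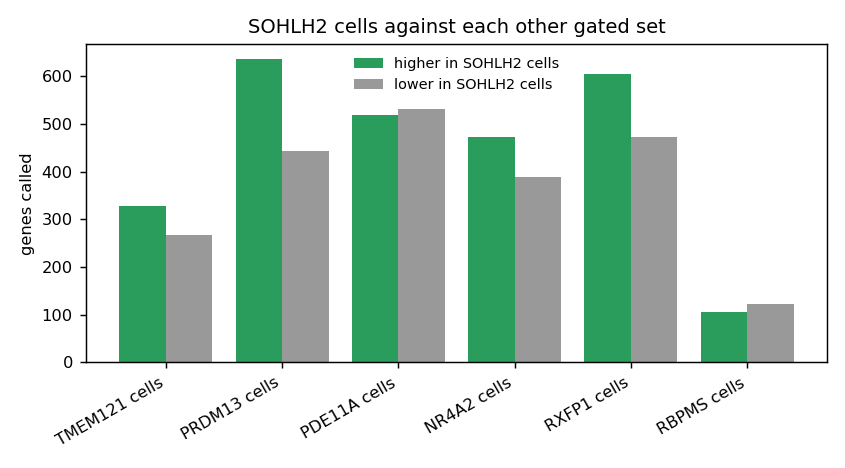
Number of genes called higher and lower in SOHLH2 cells against each of the 6 other gated sets, of 12333 tested; the bars for RBPMS cells stand at 106 and 123, the lowest of the 6 in each direction.

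RBPMS encodes an RNA-binding protein that marks ganglion cells of jawed vertebrates, and SOHLH2 cells were limited to 1 UMI of it. Some genes that separated SOHLH2 cells from the other GAD1 cells were not called against RBPMS cells. LAMA2 was at 88.6 and 64.6 CPM in SOHLH2 cells and 89.5 and 93.3 CPM in RBPMS cells (log2 difference −0.41 ± 0.23, SE; edgeR adjusted p = 0.378), against at most 10.6 CPM in any library of the other 5 sets. CNR1 was at 2256 and 1380.0 CPM in SOHLH2 cells and 1600.4 and 1021 CPM in RBPMS cells (log2 difference 0.42 ± 0.21, edgeR adjusted p = 0.300). DSCAM was low in both, at 69.2 and 241 CPM in SOHLH2 cells and 211 and 129 CPM in RBPMS cells (log2 difference 0.07 ± 0.32, edgeR adjusted p = 0.960). TMEM121 cells were the third set with low DSCAM, at 241 and 250 CPM, while the other 4 sets held 1456 CPM or more. GPR22 and CASZ1 were not called either (log2 differences 1.05 and 1.41, edgeR adjusted p = 0.062 and 0.082). These p-values missed the threshold, which does not show that the levels are the same. ABLIM1 and KLHDC8B were higher than in RBPMS cells but did not reach 2-fold (log2 differences 0.691 and 0.901, edgeR adjusted p = 0.0149 and 0.0044). Of the 11 named higher genes, ACTN2, ESRRG, ERBB4.4, BBS7 and HHATL were called higher against RBPMS cells.

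Other genes separated SOHLH2 cells from RBPMS cells. ACTN2 was at 94.1 and 69.9 CPM in SOHLH2 cells, against 20.7 and 15.9 CPM in RBPMS cells (log2 difference 2.18 ± 0.28, SE; edgeR adjusted p = 0.00055). It was shared instead with TMEM121 cells, at 83.3 and 42.8 CPM (log2 difference 0.46 ± 0.22, edgeR adjusted p = 0.257). ESRRG was at 1113 and 1321 CPM in SOHLH2 cells, against 342 and 246 CPM in RBPMS cells (log2 difference 1.99 ± 0.22, edgeR adjusted p = 0.00022). The next highest level of ESRRG was that of PDE11A cells, at 559 and 638 CPM (log2 difference 1.08 ± 0.22, edgeR adjusted p = 0.0032).

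**Figure D4:**
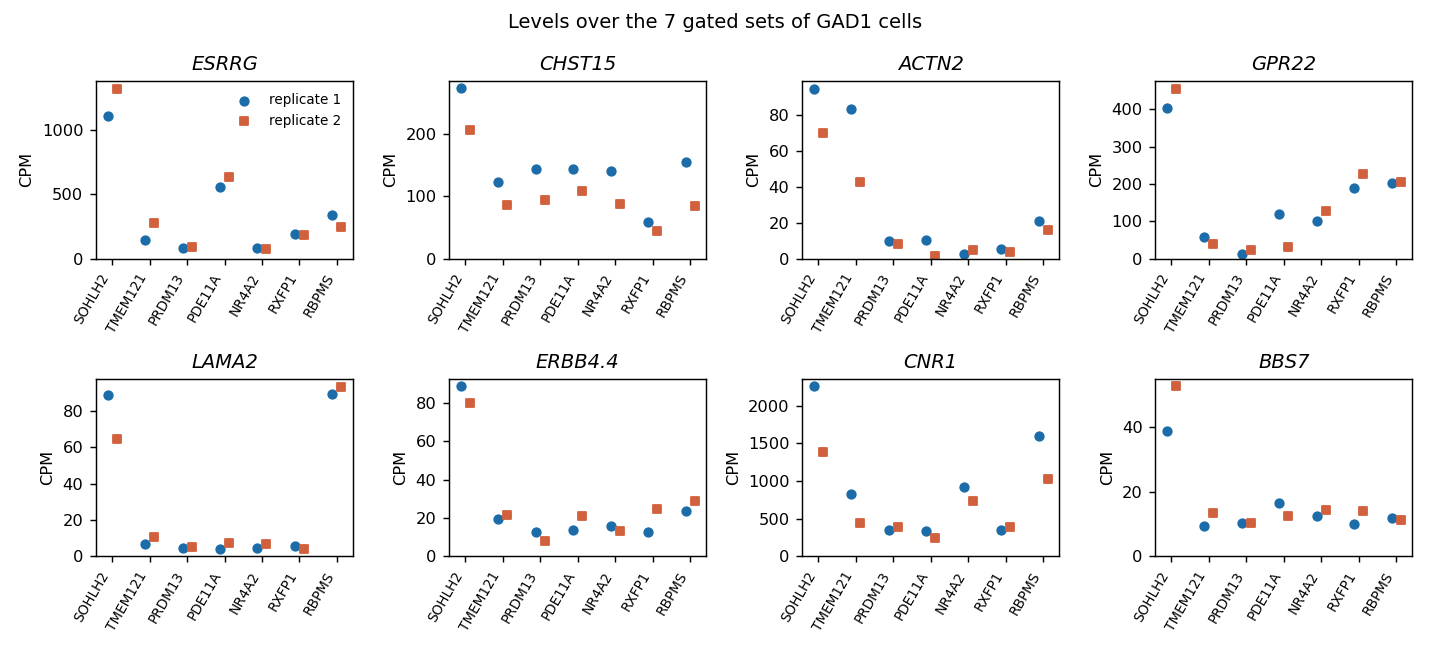
Levels of selected genes in SOHLH2 cells and the 6 other gated sets, in CPM on an axis from 0 with 1 point per library. LAMA2 had 88.6 and 64.6 CPM in SOHLH2 cells and 89.5 and 93.3 CPM in RBPMS cells, against at most 10.6 CPM in the other 5 sets, and ESRRG had 1113 and 1321 CPM in SOHLH2 cells, against 559 and 638 CPM in PDE11A cells, the next highest.

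Against each of the 6 sets taken singly, 17 genes were higher in SOHLH2 cells and 0 lower, of which 4 carry a name: ESRRG, ERBB4.4, BBS7 and CHST15, the last named after its values were seen. CHST15, a chondroitin sulfate sulfotransferase gene, was at 274 and 207 CPM in SOHLH2 cells and between 44.9 and 155 CPM in the other sets. The log2 difference of ESRRG from the mean of the 6 sets was 2.69 ± 0.14 (SE; edgeR adjusted p = 2.7e-08), and that of ERBB4.4 was 2.24 ± 0.21 (edgeR adjusted p = 5.1e-06). Of the neighbours of SOHLH2, DCLK1 was higher than the mean of the 6 sets (log2 difference 1.39 ± 0.10, edgeR adjusted p = 4.3e-07).

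Other genes named by this comparison were shared with some of the 6 sets. LTK, a receptor tyrosine kinase gene, was at 49.8 and 65.8 CPM in SOHLH2 cells, 48.1 and 64.2 CPM in RBPMS cells and 43.3 and 43.4 CPM in TMEM121 cells, against at most 24.8 CPM elsewhere. CCDC141 was at 102 and 39.4 CPM in SOHLH2 cells and 70.0 and 44.6 CPM in TMEM121 cells. Among the lower genes, HMCN1, which encodes the extracellular protein hemicentin, was at 11.1 and 19.98 CPM in SOHLH2 cells and highest in PDE11A cells, at 755 and 796 CPM. KLHL14, a kelch-like gene, had 2.77 and 7.64 CPM, against 21.6 to 56.9 CPM in 5 sets, but 3.11 and 3.97 CPM in RBPMS cells. LRRC75A had 13.8 and 18.2 CPM in SOHLH2 cells, with 217 and 181 CPM in PRDM13 cells as the highest set. CFAP52, a gene of motile cilia, had 0 and 11.8 CPM in SOHLH2 cells, against 107 and 90.1 CPM in NR4A2 cells. CRHBP was called lower against TMEM121, PRDM13 and RXFP1 cells, but not against PDE11A, NR4A2 or RBPMS cells. MYRIP was called lower against PRDM13, PDE11A and RXFP1 cells, but not against TMEM121, NR4A2 or RBPMS cells.

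Gene lists were read as counts beside the share of all genes called (1.85% higher and 3.70% lower against the other GAD1 cells). Of 11 tested ganglion cell markers, 1 was higher and 2 were lower. The higher one was LRFN5, a synaptic adhesion gene, at 216 and 173 CPM in SOHLH2 cells, against 99.4 and 80.7 CPM. SLC17A6, the vesicular glutamate transporter gene, was lower at 5.54 and 21.1 CPM, against 29.1 and 47.8 CPM, and ISL1 had 2 UMIs in all members. POU4F2, the ganglion cell factor of jawed vertebrates, had 3 UMIs in all SOHLH2 cells and was not tested. Both tested amacrine markers were lower, BEGAIN and SLC32A1. Against the 6 other sets 0 of 2 amacrine and 0 of 10 ganglion cell markers were called. BEGAIN UMIs were found in 16.1 and 34.6% of SOHLH2 cells and 21.3 and 36.1% of the other GAD1 cells. The share was 38.8 and 40.6% in the deeper Müller glia-like cells. SLC32A1, the vesicular transporter gene for GABA, was at 8.31 and 12.9 CPM in SOHLH2 cells, against 29.0 and 27.1 CPM (log2 difference −1.18 ± 0.31, SE; edgeR adjusted p = 0.0023). Its UMIs were in 9.68 and 10.49% of SOHLH2 cells, against 14.6 and 13.8% of the other GAD1 cells and 10.2 and 13.1% of Müller glia-like cells. The last set, the free-RNA reference, was deeper, with medians of 18047 and 13314 UMIs against 11085 and 8220 in SOHLH2 cells. These shares therefore do not show whether SLC32A1 in SOHLH2 cells was above free RNA. ABAT, which breaks GABA down, was at 166 and 163 CPM, against 225 and 213 CPM (edgeR adjusted p = 0.0719).

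Markers of other cell classes differed in their level in SOHLH2 cells. Of 5 tested Müller glia markers 0 were higher and 3 were lower (GLUL, CLU and HES1), with a summed level of 136 and 315 CPM in SOHLH2 cells, 311 and 627 CPM in the other GAD1 cells and 9567 and 7987 CPM in Müller glia-like cells. HES1 had 1 UMI in the members. Of 9 photoreceptor markers 0 were called, with summed levels of 13.8 and 16.5 CPM, against 30.5 and 31.6 CPM, and 2 of the 9 had 0 UMIs in the members. Of 4 horizontal cell markers 2 were lower: BARHL1, a homeobox gene at 27.7 and 64.0 CPM, against 182 and 189 CPM, and LHX1 with 1 UMI in the members. Of 5 bipolar markers 0 were higher and 1 was lower, and their summed level was above that of the Müller glia, photoreceptor and horizontal cell lists, at 498 and 495 CPM in SOHLH2 cells, 688 and 748 CPM in the other GAD1 cells and 553 and 533 CPM in Müller glia-like cells. VWF, of vessel walls in mammals, was called higher on 15 UMIs. The part of glial or other RNA in the differences was not tested.

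Of 21 tested transmitter receptor genes, 4 were higher (CNR1, CRHR2.2, CHRNA7, CHRNB1) and 4 lower (HTR7, DRD2, CCKAR, ADRB1). CRHR2.2, a gene model named for a receptor of the corticotropin-releasing hormone family, was at 421 and 442 CPM in SOHLH2 cells, against 204 and 180 CPM (log2 difference 1.20 ± 0.14, SE; edgeR adjusted p = 1.1e-16). In thinned cells CRHR2.2 was found in 51.6 and 48.8% of SOHLH2 cells and 48.5 and 54.3% of PDE11A cells. The shares were 42.8 and 40.9% in TMEM121 cells and 39.7 and 46.8% in RBPMS cells. PRDM13, NR4A2 and RXFP1 cells held CRHR2.2 less often. The nicotinic acetylcholine receptor subunit gene CHRNA7 was at 60.9 and 61.1 CPM, against 33.4 and 29.1 CPM (edgeR adjusted p = 9.3e-06). TMEM121 cells held it about as often, at 20.6 and 10.6% of thinned cells, against 22.6 and 9.88% of SOHLH2 cells. CHRNB1 was found in 0 and 3.09% of thinned SOHLH2 cells and 6.03 and 3.19% of thinned RBPMS cells. In any library of the other gated sets it was found in at most 2.82%. The dopamine receptor gene DRD2 was at 52.6 and 28.2 CPM, against 161 and 117 CPM (log2 difference −1.89 ± 0.20, edgeR adjusted p = 1.8e-19). HTR7, a serotonin receptor gene, was at 94.1 and 153 CPM, against 274 and 292 CPM (log2 difference −1.11 ± 0.15, edgeR adjusted p = 2.4e-11). DDC, the enzyme gene of dopamine and serotonin synthesis, had 0 UMIs in the SOHLH2 cells, against 6.501 and 5.08 CPM, and was at least 3.90-fold lower (3 counts over the group taken as the floor).

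Of 29 ion channel genes 2 were higher and 2 lower. KCNH1, a voltage-gated potassium channel gene, was at 437 and 332 CPM in SOHLH2 cells, against 193 and 157 CPM (log2 difference 1.14 ± 0.14, SE; edgeR adjusted p = 6.3e-15), and the calcium channel gene model CACNA1D.1 at 186 and 202 CPM, against 101 and 81.4 CPM. RBPMS cells held CACNA1D.1 more often: in thinned cells it was found in 47.4 and 34.0% of them, against 22.6 and 28.4% of SOHLH2 cells. Beside CACNA2D3.1, KCNAB1 was called lower, but in replicate 1 it had 36.0 CPM in SOHLH2 cells, against 35.3 CPM. Of 7 peptide and secreted signal genes 0 were higher and 3 lower: CRHBP, CXCL14 and PCSK2, the last a prohormone convertase at 144 and 118 CPM, against 307 and 239 CPM. Of 9 vesicle release genes 0 were higher and 2 lower, the complexin genes CPLX3 and CPLX4. Both were rare in all these cells. CPLX3 was found in 0 and 2.47% of SOHLH2 cells, 2.77 and 4.54% of the other GAD1 cells and 4.08 and 3.43% of Müller glia-like cells. For CPLX4 the shares were 0 and 2.47%, 2.35 and 3.96%, and 6.12 and 1.71%. Whether either was above free RNA was not tested. CPLX1 was found in 100% of SOHLH2 cells. Of 11 adhesion genes 1 was higher, the protocadherin gene PCDH10 at 83.1 and 49.9 CPM, against 30.7 and 24.6 CPM. DSCAM was the 1 of 6 axon guidance genes called, and 0 of 5 genes of the axonal cytoskeleton were called.

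Of 27 tested homeobox, SOX and other fate factors 2 were higher (ESRRG and INSM1) and 4 lower, with BARHL1, LHX1 and ISL1 among them. INSM1, a zinc finger gene of neural progenitors and neuroendocrine cells in mammals, was at 52.6 and 6.46 CPM in SOHLH2 cells, against 3.57 and 1.42 CPM (log2 difference 3.11 ± 0.47, SE; edgeR adjusted p = 1.8e-09). It rested on replicate 1, where it had 19 UMIs in 31 cells, and lost its call without library in the model (edgeR adjusted p = 0.199) and with thinned cells (adjusted p = 0.718). Of 12 other tested basic helix-loop-helix genes 0 were higher and 1 lower (HES1). Against the 6 other sets 1 of 11 was higher, BHLHE22, a gene of amacrine cell specification in mice, at 52.6 and 37.0 CPM. BHLHE22 was shared with RBPMS and TMEM121 cells. In thinned cells it was found in 12.9 and 3.70% of SOHLH2 cells, 8.62 and 12.8% of RBPMS cells and 8.55 and 8.05% of TMEM121 cells. In each library of the remaining sets it was found in at most 4.04%. Of 64 cytosolic ribosomal protein genes 0 were higher and 1 lower, with a median log2 difference of −0.39.

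A list of sarcomere genes and their regulators was drawn up after the value of ACTN2 had been seen, so its counts are a description. Of 16 tested, 6 were higher and 0 lower against the other GAD1 cells, where 1.85% of all genes were higher. ACTN2 itself is counted, with MYBPC1, MYOM1, ALPK3 and SRL. The median log2 difference was 0.90, against −0.05 over all genes. Not all of these genes were particular to SOHLH2 cells. ALPK3 was found in 9.68 and 5.56% of SOHLH2 cells and in 6.90 and 5.32% of RBPMS cells, which were deeper. ACTN2 was lower in RBPMS cells, as given above. MYBPC1, MYOM1, ALPK3 and SRL had low levels, from 4.70 to 13.8 CPM in SOHLH2 cells. SRL, the sarcalumenin gene, was not called with DESeq2 (adjusted p = 0.289) and went the other way in members of 10 or more SOHLH2 UMIs (log2 difference −0.91, edgeR adjusted p = 0.913). TTN, which encodes the giant muscle protein titin, was at 144 and 137 CPM, against 88.8 and 90.2 CPM, and did not reach 2-fold. TCAP and NEB had 2 UMIs each in the SOHLH2 cells, and LMOD2 and NRAP 0.

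The members differed among themselves in how many SOHLH2 UMIs they held and in the genes that went with it. SOHLH2 was at 4894 and 3950.2 CPM in members of 10 or more SOHLH2 UMIs and at 250 and 358 CPM in those of 2 to 9. The split was chosen after the values were seen. Fitted separately against the other GAD1 cells, 207 of the 291 higher genes were called with the first part of the members and 138 with the second, and 287 of the 290 that could be tested had the same direction in each. Of the 583 lower genes 351 and 337 were called, and all 583 had the same direction in both. The parts make up the members that gave the calls, so this is a description of the members and no separate support.

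ESRRG was highest in the cells with most SOHLH2 UMIs, in both libraries. Among cells that met the other limits, it was at 223 and 186 CPM in those with 0 SOHLH2 UMIs, 452 and 256 CPM with 1, 464 and 777 CPM with 2, 704 and 425 CPM with 3, 722 and 1089 CPM with 4 to 9, and 2003 and 1744 CPM with 10 or more. In cells thinned to 2000 UMIs, ESRRG was found in 10 of 11 and 52 of 80 members of 10 or more SOHLH2 UMIs, against 7 of 20 and 31 of 82 members of 2 to 9. CNR1 differed less between the parts, at 2432 and 1628 CPM in the first and 2154 and 1096 CPM in the second.

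Some genes were higher in the members of few SOHLH2 UMIs. PRDM8, a transcriptional repressor gene of bipolar and amacrine cells in mice, was at 105 and 195 CPM with 10 or more SOHLH2 UMIs and at 490 and 334 CPM with 2 to 9. LTK was at 0 and 51.7 CPM, against 78.8 and 82.0 CPM. In TMEM121 cells PRDM8 was at 604 and 405 CPM and LTK at 43.3 and 43.4 CPM. These values have no test.

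**Figure D5:**
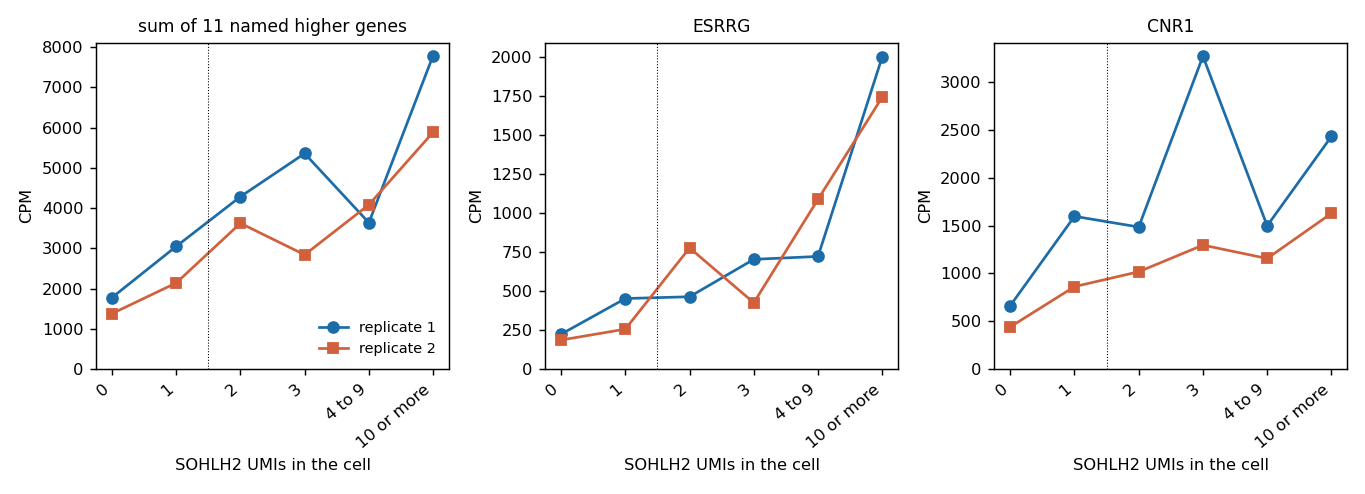
Summed level of 11 named higher genes, and levels of ESRRG and CNR1, by class of SOHLH2 UMIs, in CPM, for cells that met the other limits; each line is 1 library. The sum was 1776 and 1377 CPM with 0 SOHLH2 UMIs and 7793 and 5887 CPM with 10 or more. The genes were named for a large fold of members over cells with 0 SOHLH2 UMIs, so a difference between those classes follows largely from the choice.

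The cells just outside and just inside the SOHLH2 limit lay in between. The 11 named higher genes summed to 3048 and 2140 CPM in the 71 and 134 cells with 1 SOHLH2 UMI and to 4285 and 3624 CPM in the 10 and 43 members with 2. They summed to 1776 and 1377 CPM in the 1756 and 3458 cells with none. The genes were named for a large fold of members over cells with 0 SOHLH2 UMIs. The difference between members and cells with none therefore follows largely from the choice, in which cells with 1 UMI had no part. CNR1 made up most of the difference between 0 and 1 SOHLH2 UMI, at 1597 and 862 CPM with 1 UMI, against 663 and 440 CPM with none. ESRRG was also higher with 1 UMI in both libraries, at 452 and 256 CPM, against 223 and 186 CPM. So were ABLIM1, KLHDC8B, ACTN2, CASZ1 and HHATL. LAMA2, ERBB4.4, BBS7 and GPR22 did not differ in the same direction in both libraries. GPR22 was at 111 and 191 CPM, against 130 and 97.1 CPM. A member with 2 stood below the 7793 and 5887 CPM of the members with 10 or more. Between these classes the sum did not rise steadily. It was 5359 and 2840.5 CPM with 3 SOHLH2 UMIs and 3637 and 4084 CPM with 4 to 9.

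Genes were ranked by variance over mean of counts thinned to 2000 UMIs, over the members of each library and 4775 genes. The 10 genes of highest rank, taking the lower rank of the 2 libraries, included SOHLH2 itself, with ratios of 12.5 and 12.04. The other named genes of that group were the mitochondrial gene CYTB (30.4 and 6.43) and NFIA (5.72 and 11.7), and 7 carried no gene symbol. The last place was a tie that also held FTH1, a ferritin heavy chain gene (4.63 and 5.70). NFIA, a nuclear factor gene of glia and of amacrine subsets in mice, was at 399 and 844 CPM in SOHLH2 cells, against 751 and 780.5 CPM in the other GAD1 cells and 2880 and 3336 CPM in Müller glia-like cells, so its overall level in SOHLH2 cells was not called different (log2 difference −0.32 ± 0.13, SE; edgeR adjusted p = 0.113). NFIA and ESRRG tended to be found in different members: in thinned cells NFIA was present in 4 of 17 and 17 of 83 members with ESRRG, against 7 of 14 and 35 of 79 without. In members of 10 or more SOHLH2 UMIs NFIA was at 67.8 and 559 CPM, against 591 and 1171 CPM in those of 2 to 9. The part of glial RNA in the NFIA values was not tested.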

How the data were processed

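Per the files and the study's methods, the authors dissociated adult lamprey retinas with papain, made droplet 3′ libraries and counted UMIs against a lamprey transcriptome placed on the assembly kPetMar1.pri. The deposited matrices hold raw UMI counts per gene and barcode for 24979 genes. Cell Ranger is named as version 6.0.1 in the submitters' processing notes and 7.0.1 in the matrix header, and the strand setting is not given in the sources used here. The labels speak of a cell sort that the methods do not describe. The matrices held 87882951 and 117426390 UMIs.

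Cells were gated on counts as deposited, without clustering and with no doublet caller. UMIs were summed per library and set and tested with edgeR 4.0.16 in R 4.3.3 (filterByExpr, TMM, glmQLFit, glmQLFTest; two-sided). The sums compared come from the same libraries, which is where the pairing comes from, and library was a term of the model as the replicate block. The SE is the size of the log2 difference over the square root of F. The 11 gate genes were not tested. Calls needed a difference of at least 2-fold and p under 0.05 after Benjamini-Hochberg adjustment. On simulated counts for the comparison with the other GAD1 cells (15504 genes) 94% of genes changed by 1.5 on the log2 scale were recovered, and 100% of those changed by 3. For the 6 other sets (11758 genes) these were 93% and 100%. Genes of low expected counts in SOHLH2 cells were not changed, and all genes were given the same spread. Recovery may therefore be lower for real genes that are low or differ between libraries.

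The genes named were the gate genes, ISLR2, and for each comparison, among called genes with a symbol and the same direction in both libraries, the 12 of largest fold higher (at least 20 CPM in both libraries of SOHLH2 cells) and the 8 of largest fold lower (at least 20 CPM in both libraries of the other set, or on average over the 6 sets), with members of the gene lists that were called or mark a class. Some genes that the rule selects are not reported here. Genes named outside it (CHST15, FTH1, NFIA, the neighbours of SOHLH2 and sarcomere genes not called) were chosen after their values were seen, NFIA, FTH1 and CYTB by a ranking of variance over mean. Names came for 1998 genes from a supplementary list of the study, for 5456 from the files and for 559, SOHLH2 and PRDM13 among them, from RefSeq (UKy_Petmar_22M1.pri1.0). The other 16966 have none, so lists were tested in part. Numbered names such as ERBB4.4 are copies of 1 symbol, between which reads may be split. The members and lists were chosen with earlier results of these data known. Alternatives were DESeq2 1.42.0, RLE normalization, no filter, no replicate block, thinned cells, other limits on cells and each library left out. Intervals are exact binomial and cover counting error only. Python 3.11.15, numpy 2.4.6, scipy 1.17.1, pandas 2.3.3 and matplotlib 3.10.9 were used.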

Additional observations from a re-analysis of the deposited data

Results flagged for a closer look

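Barcodes with 10 or more SOHLH2 UMIs that met the depth limit but not the other limits numbered 56 (9 in replicate 1 and 47 in replicate 2), and no comparison above used them. Of 224 Müller glia-like cells, themselves chosen for 0 GAD1 UMIs, 0 had 10 or more SOHLH2 UMIs. The 56 barcodes had a median of 25 and 26 SOHLH2 UMIs, a value that chose them. More than 1 UMI of one of the 6 other genes left out 47 of them (TMEM121 in 20, RBPMS in 16, PRDM13 in 10), glycine transporter UMIs 12 and a lack of GAD1 UMIs 1. They were deep, with medians of 20697 and 16498 UMIs, against 9779 and 9787 in the members of 10 or more SOHLH2 UMIs. The 11 named higher genes summed to 5450.4 and 4425 CPM in them, against 7793 and 5887 CPM in those members, and ESRRG was at 1674 and 1105 CPM, against 2003 and 1744 CPM. Those members took part in the choice of the 11 genes, and the 56 barcodes did not. The part of doublets in these barcodes was not tested.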

How the results depend on the processing

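Against the other GAD1 cells, the 291 higher and 583 lower genes became 185 and 232 with DESeq2, 114 and 131 with no replicate block and 137 and 251 with each cell thinned to 2000 UMIs, and the higher genes were 169 with only the members of 2 to 9 SOHLH2 UMIs, a split chosen after seeing the data. Against the 6 other sets, the 385 higher genes became 237 when thinned, and the 152 lower genes 248 with no filter, 100 with no replicate block and 94 with the members of 2 to 9 SOHLH2 UMIs. The cause of these shifts was not tested, except that fewer UMIs or cells entered the thinned and split fits. Of the 11 named higher genes all kept their calls under the alternatives run except CASZ1, HHATL and BBS7. With no replicate block 28 of 54 genes described lost their calls in the first comparison and 5 of 43 in the second. A library left out leaves 1 sum per set and no test: SOHLH2 cells were 0.682 to 2.21% of their GAD1 cells, and KCNAB1 had log2 differences of −1.24 to 0.026. Without replicate 1 the value of 31 of the 54 genes described in the first comparison and 28 of the 43 in the second moved by more than the spread between replicates (levels with a pseudocount, not fitted values), and without replicate 2 that of 32 and 21, beside KCNAB1. The pooled share of 1.62% was 3.35% with at least 1 SOHLH2 UMI, 1.18% with at least 3, and 1.08% with cells thinned before gating. SRL turned to −0.91 in members of 10 or more SOHLH2 UMIs. The 31 cells of replicate 1 limit low genes most: 3 UMIs there equal 8.31 CPM.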

Other observations

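The neighbours of SOHLH2 were looked up after the value of BBS7 was seen. Other genes near SOHLH2 in the RefSeq order of UKy_Petmar_22M1.pri1.0 were not called in SOHLH2 cells against the other GAD1 cells: the log2 difference was 0.16 for NDUFA11 (edgeR adjusted p = 0.636), 0.03 for LARP1B (adjusted p = 0.980), −0.01 for MAB21L1 (adjusted p = 0.996) and −0.11 for NBEA (adjusted p = 0.813). Together with CCDC169, these are 5 tested neighbours that were not called, beside BBS7 and DCLK1, which were. Over all genes tested, 5.55% were called either way. ABHD18, another neighbour, was not tested. With so few genes, looked up after BBS7 was seen, these counts are a description only.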
